A study of Mus musculus with 6 samples.

Results

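The 35 genes described here mark the neural progenitors of the developing cortex or carry Notch signalling. They were taken by symbol, with no measured value in the rule, though earlier results of these data were known when they were chosen. All 35 were found among the 54232 genes of the count files. By role they comprise 10 transcription factors of radial glia and neural stem cells, 8 structural, surface or RNA-binding genes of radial glia, and 4 intermediate progenitor and proneural genes. The Notch pathway contributes 3 receptors, 4 ligands, the ligand-response modifier Lfng with the nuclear effector Rbpj, and 4 Hes and Hey genes.

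RNA was sequenced from 6 libraries of cortical neurons of CD1 mice, an outbred stock, all labelled wildtype. The labels give 3 groups of 2 libraries, numbered repeat 1 and repeat 2: a control whose library names carry PDL, PA whose names carry IKVAV, a peptide sequence derived from laminin, and PA + PS2 whose names carry IKVAV with PEDOT-S, where PEDOT is a conducting polymer. The treatment label names a peptide amphiphile for all 6 libraries, including those of the control. For the age of the animals, the time in culture, the dose and the meaning of a repeat number, the sources used here give nothing. Separate animals or cultures are not stated for the repeats either, and a p-value therefore reflects the spread between these libraries alone, which may be technical.

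Radial glia are the stem cells of the embryonic cortex, with processes that span its wall. They divide to renew themselves and to give rise to neurons, directly or through intermediate progenitors, and later to glia. In Notch signalling, a Delta or Jagged ligand on one cell binds a Notch receptor on its neighbour, the receptor is cut, and its inner part joins Rbpj in the nucleus to switch on genes such as Hes1 and Hes5. These repressors hold back proneural genes and so keep a cell a progenitor, while cells committed to a neuronal fate display the ligands.

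Library totals ran from 30714311 counts (PA repeat 1) to 33923681 (control repeat 2), so 1 CPM (count per 1000000 counts) stood for 30.7 to 33.9 counts. Levels below are CPM scaled with TMM factors, a correction for RNA composition, in the order repeat 1 then repeat 2. The neuronal label was met by its markers: 10 cortical neuron genes summed to 5811 to 6327 CPM, against 728 to 1304 CPM for all 35 genes described here. The replicates of a group differed in progenitor genes. The 35 genes summed to 845 and 1115 CPM in the control, 914 and 1304 with PA, and 728 and 789 with PA + PS2. In bulk RNA, fewer cells of a type and less RNA per cell cannot be told apart.

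Of the 35 genes, 34 passed the filter on low counts, by the levels of any group. Neurog1, a proneural factor, had no count in any library, where 3 counts would stand for 0.0884 to 0.0977 CPM. Gene positions are on GRCm38, and all 35 are protein-coding genes. By mean level over all libraries, 16 genes lay at 10 CPM or more, 16 between 1 and 10 CPM, and 3 below 1 CPM. Per length of the exons, as RPKM averaged over the 6 libraries, Fabp7 stood first at 57.4, then Vim at 38.0, Hes6 at 28.3, Sox2 at 16.6, Msi1 at 15.6 and Msi2 at 14.3. In the control, Fabp7 spanned 31.1 to 79.4 RPKM and Vim 34.6 to 46.8, so that the order of these neighbours was within the spread of the replicates. At the lower end of the per-length order were Gli2 at 0.525 RPKM, Hes5 at 0.500 and Gli3 at 0.369. The exons of 12 of the 35 genes overlap an antisense gene, and the sources used here do not say whether counting used strand, which leaves reads of such pairs uncertain in origin. The antisense partner of Dll1, A930024N18Rik, held 120 to 185 counts a library beside 451 to 608 for Dll1, and that of Prom1, Gm16401, held 55 to 118 beside 272 to 365.

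**Figure D1:**
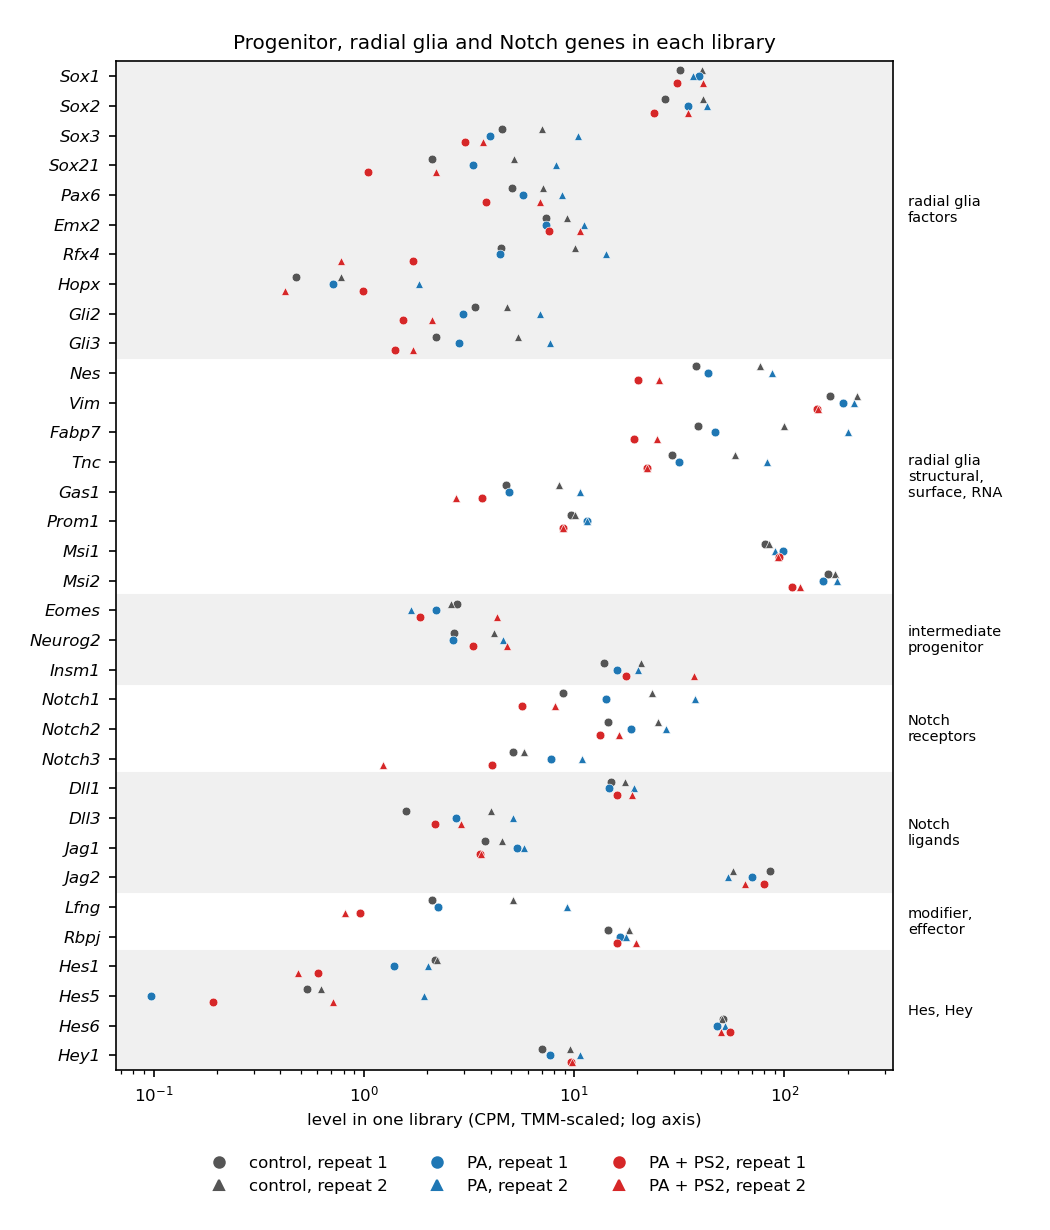
Level of each of the 34 genes with enough counts in each of the 6 libraries, as TMM-scaled CPM on a log axis, grouped by role; grey, blue and red stand for control, PA and PA + PS2, circles for repeat 1 and triangles for repeat 2. For Nes, Fabp7, Rfx4, Notch1, Lfng and Hes1 both red points lie to the left of all others, whereas for Dll1, Rbpj, Hes6 and Msi1 the 6 points lie close together.

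The libraries allow 3 comparisons: the amphiphile against the control, PA + PS2 against the control, and PA + PS2 against PA alone. Each was tested with edgeR's quasi-likelihood test over 17299 genes with Benjamini-Hochberg adjustment, without and with the repeat number as a block. The 3 comparisons share libraries, so their values are given side by side and are not independent of each other. Without the block, 0 of the 34 genes and 0% of all tested genes passed an adjusted p of 0.05 in any of the 3, with a smallest adjusted p over all genes of 1.00, 0.225 and 0.242. At an unadjusted p under 0.05 that fit held 103, 1178 and 1332 genes, limma-voom called 0 in each comparison, and DESeq2 called 0, 130 and 200 genes. With the block, edgeR called 0 genes for PA against the control, 121 for PA + PS2 against the control and 263 for PA + PS2 against PA. The biological coefficient of variation was 16.7% without the block and 9.6% with it, on 3 and 2 residual degrees of freedom.

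No difference between PA and the control passed the test. With and without the block, 0 of 34 genes passed, beside 0% of all tested genes. The middle gene of the 34 was higher in PA by 0.22 on the log2 scale, against 0.01 over all tested genes, and 29 of the 34 estimates lay above 0, which was 85.3% against 52.3% of all genes. Within repeats 1 and 2 the median difference was 0.17 and 0.23, and 19 genes (55.9%) were above the control in both, against 24.5% of all tested genes. In the control, 31 of the 34 genes were higher in repeat 2, so these genes do not vary independently. The shares here and below describe these libraries and are not tests. Of the marker lists below, 92.9% of proliferation, 100% of astrocyte, 50% of cortical neuron and 16.7% of meningeal and fibroblast estimates were above 0 in PA. Notch1 had the smallest p with the block, at a log2 difference of 0.68 ± 0.19 (SE), an unadjusted p of 0.00533 and an adjusted p of 1.00 by edgeR; without the PA repeat 1 library, it alone of the 34 passed, as higher in PA. Both PA libraries lay above both control libraries for 4 genes (Prom1, Msi1, Notch3 and Jag1) and below them for 2 (Eomes and Hes1), beside 12.1% and 9.69% of all tested genes.

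In PA + PS2, 15 of the 18 radial glia genes (83.3%) had estimates below 0 against the control, beside 48.1% of all tested genes. So had all 3 Notch receptors, but of the 13 Notch genes together only 8 (61.5%). The 3 intermediate progenitor genes with enough counts were above 0. Against the control with the replicate block, 4 of the 34 genes fell (Nes, Msi2, Notch1 and Hes1) and 0 rose, beside 0.578% of all tested genes called lower and 0.121% called higher. Against PA, 9 fell (Sox21, Gli2, Gli3, Nes, Vim, Msi2, Notch1, Notch2 and Lfng) and 0 rose, beside 1.32% called lower and 0.202% higher. None of these passed without the block in edgeR, while DESeq2 without it called Msi2 and Hes1 against the control, and Msi2, Notch3 and Lfng against PA, all as lower, beside 0.636% and 1.01% of all tested genes called lower. The 34 genes had a median log2 difference of -0.29 against the control and -0.63 against PA, where all tested genes had 0.01 and 0.00.

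These counts depend on individual libraries. Against the control, the 4 calls with the block became 0 without control repeat 2 and 2 without PA + PS2 repeat 2 (Nes and Msi2). They became 16, 12 and 11 without PA + PS2 repeat 1, PA repeat 1 and PA repeat 2, of which all but Insm1, called as higher, were lower in PA + PS2. Without control repeat 1 there were 4, with Vim in place of Hes1. Against PA, the 9 calls became 3 without PA + PS2 repeat 2 (Nes, Msi2 and Notch1), 6 without PA repeat 2, 14 without PA repeat 1 and 17 without PA + PS2 repeat 1, of which all but Insm1 and, in the last case, Eomes were lower in PA + PS2. A group left with 1 library is assumed in these fits to vary like the others.

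Within the repeats, which keep each library with its own number, the differences kept their sign in most genes. PA + PS2 was below the control in both repeats for 20 of the 34 genes (58.8%), against 28% of all tested genes, and below PA in both repeats for 21 (61.8%), against 27.7%. The median difference from PA was -0.41 in repeat 1 and -0.71 in repeat 2. Both PA + PS2 libraries lay below both control libraries for 16 genes, beside 17.1% of all tested genes, and below both PA libraries for 18, beside 18.4%. They lay above both control libraries for 2 genes (Msi1 and Hey1), beside 16.6%, and above both PA libraries for 0, beside 16.7%.

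**Figure D2:**
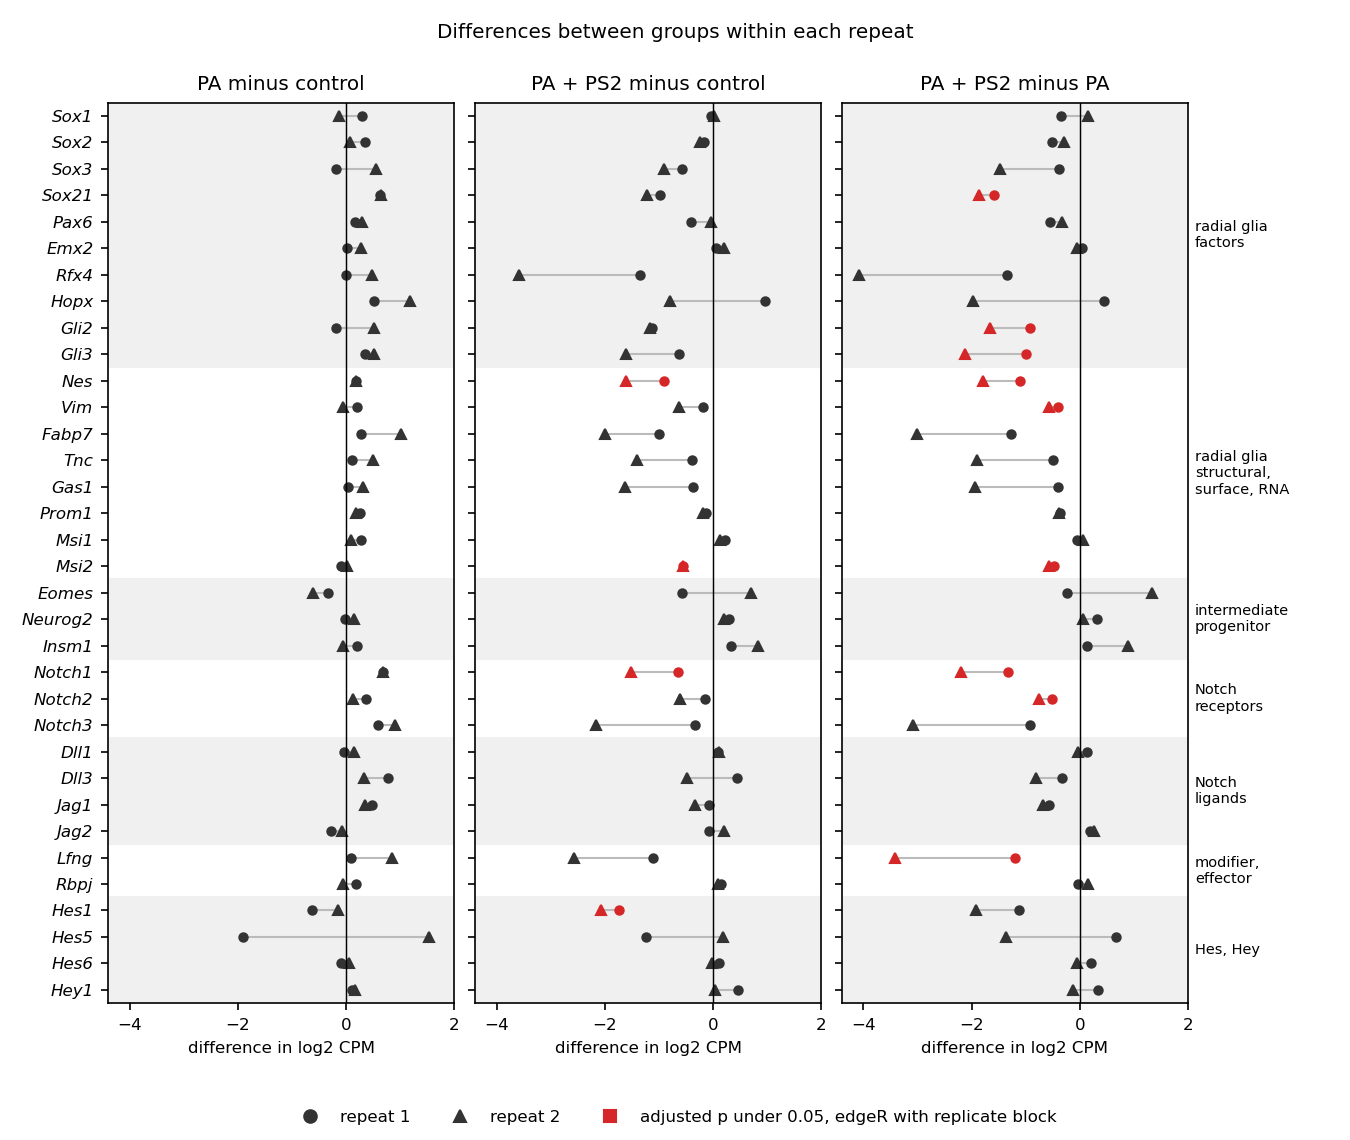
Difference in log2 CPM between groups within repeat 1 (circles) and within repeat 2 (triangles) for each of the 34 genes, in the 3 comparisons; red marks genes with an adjusted p under 0.05 in edgeR with the replicate block. No gene is red for PA minus control, 4 are red for PA + PS2 minus control and 9 for PA + PS2 minus PA, all to the left of 0. In both PA + PS2 panels the triangle lies farther left than the circle for most genes, which is not so for PA minus control.

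Among the 10 transcription factors of radial glia, none passed against the control and 3 fell against PA with the block. Sox21 (chr14:118233232-118237030, minus strand), a SoxB2 factor of neural progenitors, stood at 2.11 and 5.18 CPM in the control, 3.29 and 8.17 with PA, and 1.05 and 2.21 with PA + PS2. Its repeat 2 library was the higher in every group, so the levels of PA + PS2 and the control overlap across repeats while within each repeat PA + PS2 was the lowest. Against PA its log2 difference was -1.78 ± 0.26 (SE; adjusted p 0.00562, edgeR with the block), and without PA + PS2 repeat 2 it was -1.65 and did not pass.

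Gli2 and Gli3 are the transcription factors through which Hedgehog signals reach the genome, Gli3 acting largely as a repressor in the dorsal forebrain. Gli2 (chr1:118834132-119053619, minus strand) was at 3.39 and 4.79 CPM in the control, 2.97 and 6.85 with PA, and 1.53 and 2.11 with PA + PS2. Gli3 (chr13:15463235-15730026, plus strand) was at 2.20 and 5.39, 2.84 and 7.70, and 1.40 and 1.72 CPM in the same order. For both genes the PA + PS2 libraries were below all 4 others. The log2 differences from PA were -1.36 ± 0.28 for Gli2 (adjusted p 0.0320) and -1.62 ± 0.31 for Gli3 (adjusted p 0.0250, edgeR with the block). Without PA repeat 2 or without PA + PS2 repeat 2 neither passed, with Gli3 at -1.06 in the latter case.

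Rfx4, a winged-helix factor expressed in radial glia and in astrocytes, had the largest fitted differences of the 34 genes in both comparisons with PA + PS2 and passed in no fit with all 6 libraries. It was at 4.47 and 10.1 CPM in the control, 4.45 and 14.1 with PA, and 1.72 and 0.779 with PA + PS2. The 2 libraries of PA + PS2 were the lowest of the 6, but the distance to the other groups was far larger in repeat 2. The log2 difference from PA was -1.34 within repeat 1 and -4.08 within repeat 2, and the fitted value was -2.66 ± 0.75 (adjusted p 0.318, edgeR with the block).

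Of the SoxB1 factors, which keep neural progenitors undifferentiated, Sox1 and Sox2 varied less, while Sox3 is described below. Sox2 stood at 27.0 and 40.9 CPM in the control, 34.7 and 43.0 with PA, and 24.1 and 34.8 with PA + PS2. Its groups overlap, and its log2 difference from PA was -0.41 ± 0.10 with the block (adjusted p 0.0780, edgeR). Sox1 had 31.8 and 40.4, 39.1 and 36.8, and 31 and 41 CPM, with no order of the groups. Pax6, the factor that patterns the dorsal cortex and marks its radial glia, was at 5.06 and 7.08 CPM in the control, 5.68 and 8.71 with PA, and 3.82 and 6.91 with PA + PS2. Its difference from the control was -0.21 ± 0.20 on the log2 scale (adjusted p 0.788, edgeR with the block).

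Of the other factors in that list, Sox3, Emx2 and Hopx did not pass in either comparison with PA + PS2. Emx2, which sets the posterior and medial identity of the cortex, had log2 differences of 0.13 from the control and -0.01 from PA, and its antisense partner Emx2os held 43 to 74 counts a library. Sox3 had log2 differences of -0.75 and -0.98 (adjusted p 0.267 and 0.10, edgeR with the block), with PA + PS2 lowest in both repeats. Hopx, under 2 CPM in every library, was higher than the control in repeat 1 by 0.96 and lower in repeat 2 by a log2 difference of -0.79.

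The 8 structural, surface and RNA-binding genes of radial glia held most of the summed level, at 527 and 734 CPM in the control, 579 and 876 with PA, and 422 and 441 with PA + PS2. In edgeR with the block, 2 of the 8 fell against the control and 3 against PA. Nes (chr3:87971078-87980451, plus strand) encodes nestin, the intermediate filament of neural stem cells, and stood at 38.0 and 76.6 CPM in the control, 43.4 and 87.4 with PA, and 20.2 and 25.3 with PA + PS2. Both PA + PS2 libraries were below the other 4, and the 2 libraries lay farther apart in the control and in PA than in PA + PS2. The log2 differences were -1.26 ± 0.17 from the control (adjusted p 0.0303) and -1.45 ± 0.17 from PA (adjusted p 0.0115, edgeR with the block).

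Vim (chr2:13573927-13582826, plus strand), the intermediate filament vimentin of radial glia and also of astrocytes and mesenchymal cells, was at 164 and 222 CPM in the control, 190 and 215 with PA, and 143 and 145 with PA + PS2. Its libraries did not overlap with those of either other group. It passed against PA, by -0.49 ± 0.09 (adjusted p 0.0250), and missed the threshold against the control, at -0.41 ± 0.09 (adjusted p 0.0734, edgeR with the block). In DESeq2 with the block it passed against the control as well (adjusted p 0.0125). Without PA + PS2 repeat 2 the difference from PA was -0.34 and did not pass.

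Msi2 had the smallest spread of the genes that passed. It (chr11:88339382-88718513, minus strand) encodes Musashi-2, an RNA-binding protein that represses translation in stem cells, and was at 161 and 174 CPM in the control, 152 and 177 with PA, and 109 and 119 with PA + PS2. Its log2 difference within repeats 1 and 2 was -0.56 and -0.55 from the control, and -0.48 and -0.57 from PA. The fitted values were -0.56 ± 0.07 (adjusted p 0.00576) and -0.52 ± 0.07 (adjusted p 0.00465, edgeR with the block), and -0.56 from the control by DESeq2 without it (adjusted p 0.00121). Its relative Msi1 had 80.7 and 84.7, 98.2 and 90.1, and 94.6 and 93.2 CPM, and a log2 difference from PA of 0.00 ± 0.08 (edgeR with the block).

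Fabp7, the brain fatty acid binding protein of radial glia and young astrocytes, spanned the widest range of the abundant genes. It was at 38.8 and 99.3 CPM in the control, 46.9 and 201 with PA, and 19.3 and 24.9 with PA + PS2. Repeat 2 was above repeat 1 in every group, most in PA, while both PA + PS2 libraries were below the 4 others. The log2 differences of -1.47 ± 0.53 from the control and -2.18 ± 0.54 from PA did not pass (adjusted p 0.510 and 0.338, edgeR with the block). In DESeq2 with the block, the Fabp7 difference from PA was -2.13 ± 0.59 and passed (adjusted p 0.0193). Tnc, the matrix glycoprotein tenascin-C, was lower in both PA + PS2 libraries than in all others, at 22.3 and 22.1 CPM against 29.3 to 82.9. It did not pass (adjusted p 0.637 and 0.494, edgeR with the block).

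The remaining surface genes were Gas1, a Hedgehog co-receptor, and Prom1, which encodes prominin-1 (CD133). Gas1 had log2 differences of -0.96 ± 0.34 from the control and -1.16 ± 0.34 from PA (adjusted p 0.293 and 0.165, edgeR with the block). Prom1 lay between 8.83 and 11.5 CPM in all 6 libraries, lowest in PA + PS2, with log2 differences of -0.16 and -0.38 (adjusted p 0.793 and 0.339).

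Of the intermediate progenitor and proneural genes, all 3 with enough counts had PA + PS2 estimates above 0 against both other groups, and none passed. Eomes, or Tbr2, the factor that defines intermediate progenitors of the cortex, was at 2.77 and 2.59 CPM in the control, 2.19 and 1.67 with PA, and 1.85 and 4.28 with PA + PS2. Its 2 PA + PS2 libraries were on opposite sides of the control. Insm1, a zinc-finger factor that promotes the formation of intermediate progenitors, was at 13.8 and 20.8, 15.9 and 20.1, and 17.6 and 37.3 CPM. PA + PS2 was the highest group within each repeat, and the log2 difference from the control was 0.61 ± 0.16 (adjusted p 0.125, edgeR with the block). Neurog2, the proneural factor of the dorsal cortex, had log2 differences of 0.26 ± 0.24 from the control and 0.18 ± 0.24 from PA (adjusted p 0.778 and 0.848).

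Among the Notch receptors, Notch1 fell in both comparisons with PA + PS2 and Notch2 in that with PA. Notch1 (chr2:26457903-26516663, minus strand), the main receptor of radial glia, was at 8.84 and 23.4 CPM in the control, 14.2 and 37.4 with PA, and 5.64 and 8.08 with PA + PS2. Both PA + PS2 libraries were below all others, and PA was above the control within each repeat by 0.68 on the log2 scale. The differences of PA + PS2 were -1.11 ± 0.21 from the control (adjusted p 0.0470) and -1.79 ± 0.21 from PA (adjusted p 0.00465, edgeR with the block). Without PA + PS2 repeat 2 the first became -0.65, and it passed neither there nor without control repeat 2.

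Notch2 (chr3:98013527-98150361, plus strand), also expressed in radial glia, was at 14.5 and 25.0 CPM in the control, 18.7 and 27.4 with PA, and 13.2 and 16.3 with PA + PS2. PA + PS2 was lowest within each repeat, and its repeat 2 library overlapped the control. The log2 difference from PA was -0.63 ± 0.14 (adjusted p 0.0426, edgeR with the block), and it did not pass without PA repeat 2 or PA + PS2 repeat 2. Notch3, which is strongest in the mural cells of vessels, was at 5.12 and 5.77, 7.74 and 10.9, and 4.05 and 1.23 CPM. Its difference from PA was -0.93 within repeat 1 and -3.08 within repeat 2 on the log2 scale, which passed in DESeq2 without the block (adjusted p 0.0145) and not in edgeR with it (-1.87 ± 0.55, adjusted p 0.274).

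For the 4 ligands, 0 passed in any of the 3 comparisons. Dll1, the Delta ligand of newly committed neuronal precursors, was at 14.9 and 17.4 CPM in the control, 14.6 and 19.2 with PA, and 16.0 and 18.8 with PA + PS2. Jag2 was the most abundant, at 85.1 and 56.7, 70.5 and 54.0, and 80.4 and 64.9 CPM, and was higher in repeat 1 of every group. The groups overlap for both genes, with log2 differences from the control of 0.11 ± 0.13 for Dll1 and 0.05 ± 0.09 for Jag2 (adjusted p 0.843 and 0.898, edgeR with the block). Jag1 ranged from 3.57 to 5.80 CPM and Dll3, a divergent Delta protein that acts inside its own cell, from 1.58 to 5.11. Jag1 was lower in PA + PS2 than in PA by -0.63 ± 0.22 (adjusted p 0.239), and Dll3 by -0.58 ± 0.29 (adjusted p 0.470, edgeR with the block).

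Lfng (chr5:140607320-140615545, plus strand) encodes lunatic fringe, a sugar transferase that alters how Notch receptors respond to Delta and Jagged ligands. It was at 2.11 and 5.09 CPM in the control, 2.26 and 9.21 with PA, and 0.956 and 0.812 with PA + PS2, the last resting on 30 and 25 counts. The PA + PS2 libraries were the lowest, and the distance to PA was -1.19 within repeat 1 and -3.41 within repeat 2 on the log2 scale. The fitted difference from PA was -2.43 ± 0.47 (adjusted p 0.0426, edgeR with the block), and this call did not hold without control repeat 1, control repeat 2, PA repeat 2 or PA + PS2 repeat 2, the last giving -1.46. Rbpj, the DNA-binding protein through which all Notch receptors act, was at 14.5 and 18.2, 16.5 and 17.6, and 16.0 and 19.6 CPM, with a difference from the control of 0.12 ± 0.13 (adjusted p 0.806).

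Of the Hes and Hey repressors, Hes1 fell in PA + PS2 against the control and the others did not pass. Hes1 (chr16:30064384-30067796, plus strand) stood at 2.17 and 2.23 CPM in the control, 1.39 and 2.02 with PA, and 0.605 and 0.487 with PA + PS2. The 2 control libraries lay close together, above PA and PA + PS2, and the PA + PS2 values rest on 19 and 15 counts. Its log2 difference from the control was -2.0 ± 0.40 (adjusted p 0.0432), and that from PA was -1.62 ± 0.40 (adjusted p 0.0775, edgeR with the block). The call against the control did not hold without either control library or without PA + PS2 repeat 2, at values from -2.07 to -1.72.

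Hes5, the other classic Notch target of radial glia, was at 0.536 and 0.625 CPM in the control, 0.0968 and 1.92 with PA, and 0.191 and 0.714 with PA + PS2. The value of PA repeat 1 rests on 3 counts and that of PA repeat 2 on 61, so the gene shows a spread within PA and no order of the groups. Hes6, which is expressed in committed neuronal precursors and antagonises Hes1, was at 50.8 and 50.5, 47.9 and 52.4, and 54.9 and 50.2 CPM. Hey1 lay between 7.06 and 10.7 CPM in all libraries. Their log2 differences from the control were 0.05 ± 0.09 for Hes6 and 0.25 ± 0.18 for Hey1 (adjusted p 0.900 and 0.688, edgeR with the block).

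Since Rbpj binds DNA at a TGGGAA core, the 250 bases before the annotated start were searched for these letters on both strands, a motif chosen after the expression values were seen. RefSeq windows (GRCm38.p6) matched 30 of the 35 genes, with 40 windows because some genes have several starts, and none was at hand for Insm1, Hes1, Hey1, Msi1 and Sox3. The letters occurred in 9 of the 40 windows (22.5%), belonging to Emx2, Fabp7, Hes5, Lfng, Prom1, Rbpj and Tnc, against 21.6% of all 32851 windows. A match is a description of the sequence and not a site. The windows printed here are those of Lfng and Hes5, which hold 2 matches each (2.77% of all windows hold 2 or more), of Fabp7 with 1 match, and of Notch1 with none. Of those not printed, a window of Rbpj also holds 2 matches, and that of Nes holds 0. Capitals mark TGGGAA or its complement TTCCCA, and each window is written 5′ to 3′ on the gene's own strand.
Lfng, chr5:140607091-140607340, plus strand: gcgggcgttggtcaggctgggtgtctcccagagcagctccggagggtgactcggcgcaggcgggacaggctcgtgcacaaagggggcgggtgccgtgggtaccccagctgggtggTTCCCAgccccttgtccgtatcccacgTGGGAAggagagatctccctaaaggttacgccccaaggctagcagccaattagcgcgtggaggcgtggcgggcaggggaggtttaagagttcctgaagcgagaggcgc
Hes5, chr4:154960673-154960922, plus strand: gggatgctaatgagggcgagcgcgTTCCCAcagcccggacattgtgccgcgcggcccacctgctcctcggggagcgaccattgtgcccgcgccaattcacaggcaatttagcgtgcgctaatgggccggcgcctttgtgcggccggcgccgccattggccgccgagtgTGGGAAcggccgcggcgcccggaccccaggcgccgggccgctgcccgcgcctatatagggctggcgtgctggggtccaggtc
Fabp7, chr10:57784673-57784922, plus strand: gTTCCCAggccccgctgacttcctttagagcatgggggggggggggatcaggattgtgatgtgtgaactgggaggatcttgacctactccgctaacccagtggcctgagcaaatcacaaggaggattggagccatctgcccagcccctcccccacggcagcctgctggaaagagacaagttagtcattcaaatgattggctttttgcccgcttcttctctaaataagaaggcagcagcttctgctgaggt
Notch1, chr2:26503823-26504072, minus strand: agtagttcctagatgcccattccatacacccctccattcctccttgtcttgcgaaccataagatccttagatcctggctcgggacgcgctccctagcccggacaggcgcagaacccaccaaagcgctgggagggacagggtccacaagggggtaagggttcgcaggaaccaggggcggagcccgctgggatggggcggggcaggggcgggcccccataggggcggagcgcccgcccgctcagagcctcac
The RefSeq start of Notch1 lies within the longer GENCODE gene. In Lfng the matches begin 135 and 108 bases before the start, in Hes5 226 and 82 bases, and in Fabp7 249 bases. Of the genes shown, Lfng and Notch1 fell against PA in edgeR with the block, whereas Fabp7 and Hes5 did not pass there. Fabp7 passed against PA in DESeq2 with the block.

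A chosen list of other Notch pathway genes held no call. Of its 38 genes for ligands, fringe enzymes, proteases, Mastermind co-activators, ubiquitin ligases and Hes and Hey relatives, 36 had enough counts and 0 passed in any of the 3 comparisons, with medians of 0.03, -0.01 and 0.00 on the log2 scale. They summed to 2089 to 2227 CPM in the 6 libraries. Heyl, a Hey relative, had 0 counts in both PA + PS2 libraries and 0.129 to 0.357 CPM in the other 4, beside a floor of 0.0950 and 0.0976 CPM, and did not pass (adjusted p 0.186 against the control, edgeR with the block). Hes2 and Hes3 were at 0 in all libraries.

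Of 17 further progenitor genes, 1 fell against the control and 3 against PA with the block, and 0 rose. Of all tested genes, 0.578% and 1.32% were called lower in these comparisons. Tead2, a transcription factor of the Hippo pathway in neural progenitors, was at 2.04 and 2.40 CPM with PA + PS2, against 4.55 CPM or more in the other 4 libraries. It fell in both comparisons, by 1.55 ± 0.24 (adjusted p 0.0139) and 1.92 ± 0.24 on the log2 scale (adjusted p 0.00369, edgeR with the block). Sox9, a factor of radial glia and astrocytes, and Gpx8, a glutathione peroxidase family protein, fell against PA, by 0.93 ± 0.16 (adjusted p 0.0157) and 1.51 ± 0.29 (adjusted p 0.0242).

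Some markers of proliferation and of glial and mural cells also fell in PA + PS2 with the block. The 14 proliferation genes summed to 145 and 249 CPM in the control, 163 and 319 with PA, and 96.4 and 105 with PA + PS2. With the block, 5 of the 14 (35.7%) fell against the control (Cdk1, Ccnb1, Bub1b, Cenpf and Cenpe), beside 0.578% of all tested genes called lower. These with Kif11 and Mcm2 (50%) fell against PA, beside 1.32%. All 14 had estimates below 0 against the control. Their median log2 difference was -1.27, beside -0.29 for the 34 genes described here and -0.67 for the 18 radial glia genes. The 5 oligodendrocyte precursor markers summed to 33.4 and 80.5 CPM, 23.7 and 122, and 7.90 and 6.30, and the proteoglycan gene Cspg4 fell in both comparisons. All 5 had estimates below 0 against the control, with a median log2 difference of -2.66.

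The 10 astrocyte markers summed to 197 and 245 CPM in the control, 209 and 331 with PA, and 193 and 228 with PA + PS2. Most of each sum was Slc1a2 alone, at 163 and 177, 169 and 215, and 168 and 197 CPM, so the sums say little about the other markers. Of the 10, 3 (Gja1, Aldoc and Mlc1) fell against PA while 0 passed against the control. Of the 9 astrocyte markers with enough counts, 3 had estimates above 0 against the control (Gfap, Slc1a2 and S100b), with S100b at 0.149 and 0 CPM in the control, 0.258 and 0.0631 with PA, and 0.573 and 0.649 with PA + PS2 (adjusted p 0.205, edgeR with the block). The 8 vascular and mural markers summed to 17.7 and 19.9, 26.0 and 19.7, and 10.1 and 10.1 CPM, and Pdgfrb and Rgs5 of mural cells fell against PA. Of the endothelial markers, Kdr stood at 2.47 to 6.74 CPM, lowest in the PA + PS2 libraries, and Pecam1 at 1.03 to 1.51 CPM, and neither passed, while Cldn5 was at most 0.0319 CPM. The 6 meningeal and fibroblast markers summed to 71.5 and 52.4, 76.4 and 38.9, and 61.0 and 14.0 CPM, with 0 called between groups. The 7 microglia markers summed to 2.96 to 5.27 CPM. Of the neuronal markers, 0 of 10 cortical genes and 1 of 6 GABA genes (Gad1, lower against PA) passed. The part of any of these cell types in the lower levels of the radial glia and Notch genes was not tested.

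**Figure D3:**
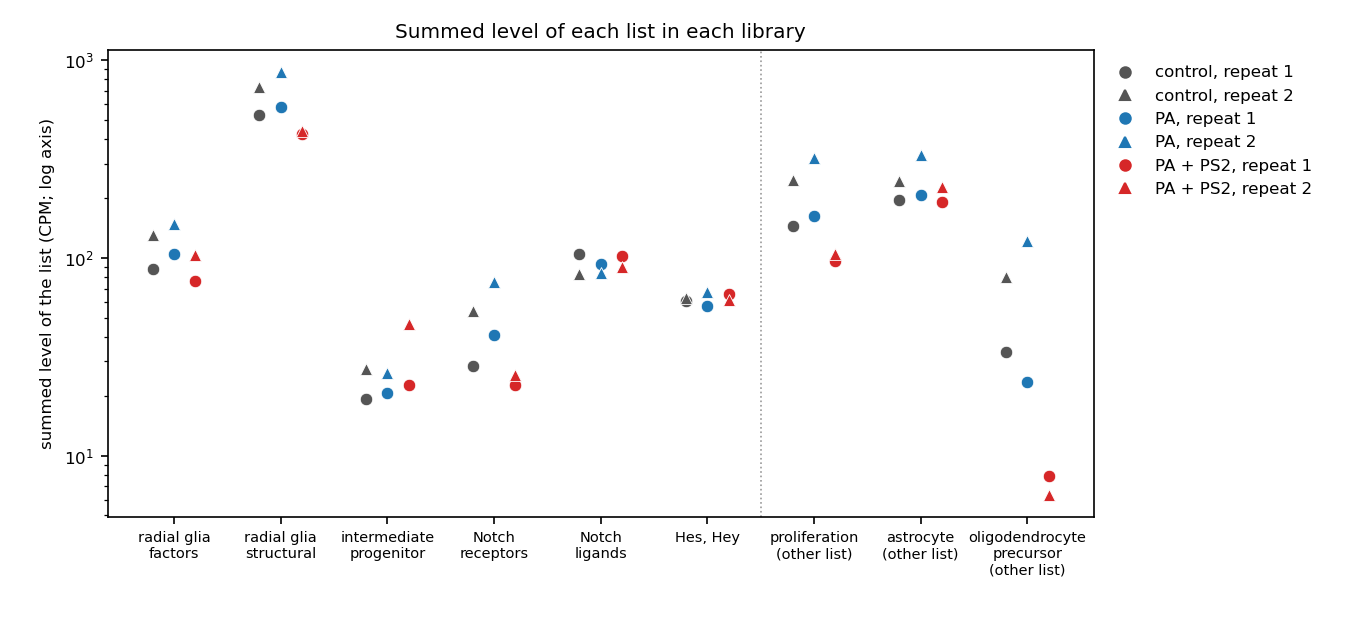
Summed level of the role lists except that of Lfng and Rbpj, and of 3 further marker lists to the right of the dotted line, in each library, as CPM on a log axis. Colours stand for groups and symbols for repeats. The structural radial glia genes at 422 and 441 CPM and the Notch receptors at 22.9 and 25.6 CPM are lowest in PA + PS2, as are the proliferation and oligodendrocyte precursor lists, while the ligands span 82.6 to 105 CPM with no order of groups.

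The repeats themselves differed in these genes. As a test added after the data were seen, the repeat term of the same fit called 8 of the 34 genes higher in repeat 2 (Sox2, Sox21, Pax6, Gli3, Nes, Insm1, Notch1 and Notch2) and 1 lower (Jag2), beside 1.94% and 2.95% of all tested genes. Notch1 was higher in repeat 2 by 1.15 ± 0.16 on the log2 scale (adjusted p 0.00453) and Jag2 lower by a log2 difference of -0.43 ± 0.07 (adjusted p 0.00516, edgeR). The 9 calls became 3 without control repeat 1, 1 without control repeat 2, 16 without PA + PS2 repeat 1 and 14 without PA + PS2 repeat 2.

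Within the groups, the 18 radial glia genes had a median difference of repeat 2 from repeat 1 of 0.61 on the log2 scale in the control, 1.06 in PA and 0.28 in PA + PS2. Nes differed by 1.01 in the control, 1.01 in PA and 0.32 in PA + PS2, and Fabp7 by 1.35, 2.10 and 0.36. Notch1 differed by 1.40, 1.39 and 0.51. Rfx4, Hopx, Gas1, Notch3, Lfng and Hes1 were higher in repeat 2 of the control and of PA and lower in repeat 2 of PA + PS2. Notch3 differed by 0.17, 0.49 and -1.66, and Tnc, near 0 in PA + PS2, by 1.00, 1.39 and -0.01. Whether the repeats differ by another amount in PA + PS2 was not tested, since each group has 1 library per repeat.

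**Figure D4:**
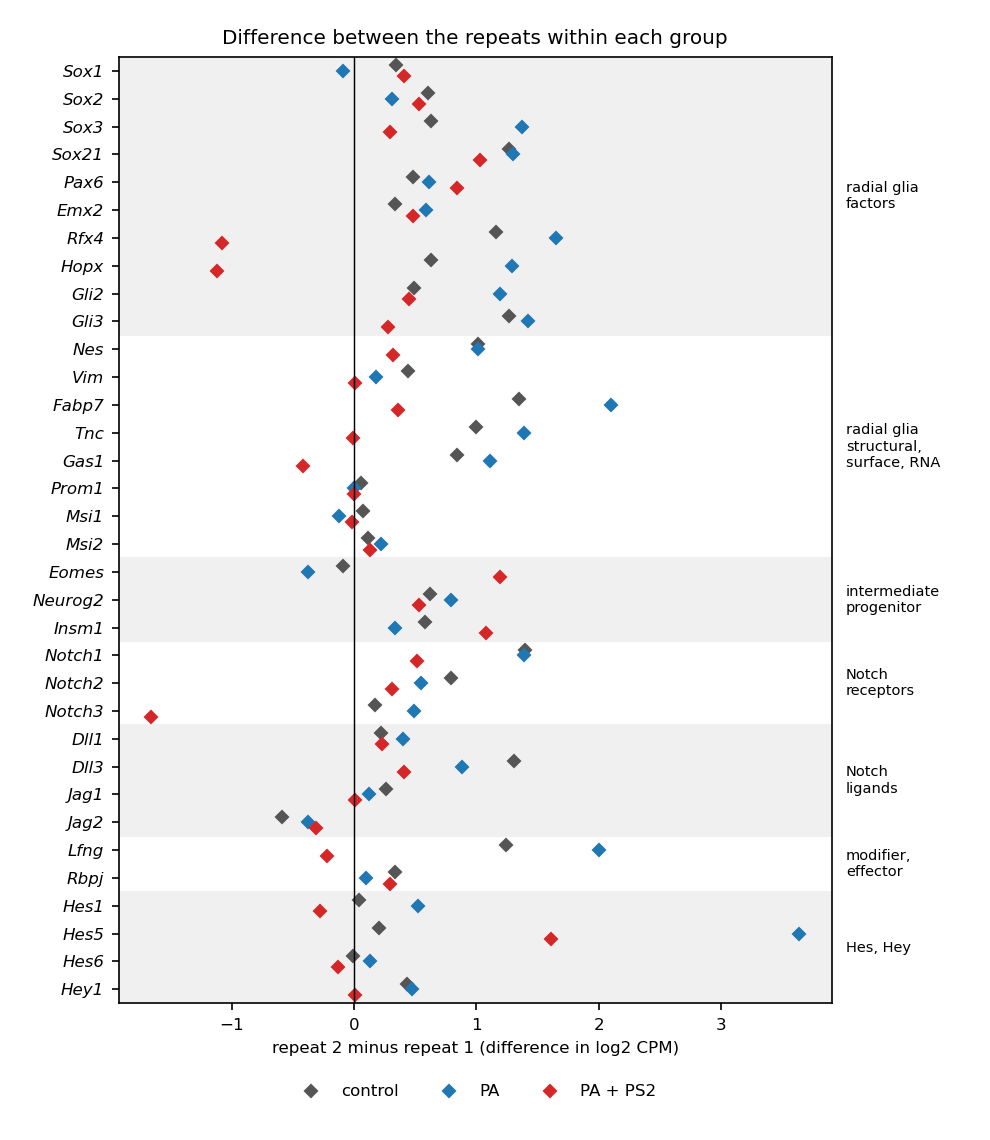
Difference of repeat 2 from repeat 1 in log2 CPM for each of the 34 genes within the control (grey), PA (blue) and PA + PS2 (red). Most grey and blue points lie to the right of 0, as for Nes at 1.01 in both groups. The red points of most radial glia genes lie nearer to 0. Some, such as those of Rfx4, Hopx and Gas1, lie to its left, as does that of the receptor Notch3.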

How the data were processed

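Each deposited file lists the counts of 1 library by Ensembl gene identifier, untransformed, as the file headers and whole-number values show. The mm10 build and the tools DESeq2 1.14.1, HTSeq 2.0.2, STAR 2.7.5 and cutadapt 4.2 appear in the submitters' processing notes, without settings. The sources used here do not say how reads on overlapping genes were counted. Symbols came from a reference list of gene names by Ensembl identifier. GENCODE M21 (GRCm38, which mm10 denotes) supplied coordinates and exon lengths.

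The main test of these counts was edgeR's, version 4.0.16 under R 4.3.3 (TMM factors, filterByExpr by group, robust quasi-likelihood, all 6 libraries, 3 groups), with Benjamini-Hochberg adjustment over 17299 genes and a threshold of 0.05. A test on simulated counts checked the scripts. Log2 values within a repeat use a prior count of 2, and SE is the log2 difference over the root of the F statistic.

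The labels number the libraries of each group 1 and 2 and name no shared animal, batch or day. Over all tested genes, the difference of repeat 2 from repeat 1 correlated between groups (Pearson's r across genes, which are not independent). The r was 0.35 for control and PA, 0.36 for control and PA + PS2, and 0.21 for PA and PA + PS2. A first component over the same genes, with 33.53% of the variance, separated the repeat numbers. The pairing thus comes from the data and not from the labels, and values with the repeat as a block stand beside those without it.

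Alternatives were RLE factors, library totals alone, other filters on low counts, DESeq2 1.42.0, limma 3.58.1 (voom), only the 2 groups compared, the replicate block, and each library left out. CPM was given in full for genes past the threshold with or without the block, for the 4 largest differences per comparison at a mean of 1 CPM or more, for the highest gene of each role list and for 9 standard markers; other genes are summarised. The genes, the role lists and the marker lists were chosen with earlier results of these data known.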

Additional observations from a re-analysis of the deposited data

How the results depend on the processing

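With the repeat number as a replicate block, edgeR called 121 genes and 4 of the genes described here for PA + PS2 against the control, and 263 and 9 against PA, where the fit without it called 0. Without a block, leaving out the filter on low counts gave 425 genes and 9 of those described here against the control, 501 and 10 against PA, and 2 genes for PA against the control, and DESeq2 gave 130 and 2, and 200 and 3. With the block, DESeq2 gave 279 and 6, 364 and 11, and 1 gene for PA against the control. Its 6 were the 4 of edgeR with Vim and Lfng, and its 11 were the 9 of edgeR with Fabp7 and Gas1. At least 50 counts in 2 libraries, with the block, gave 53 and 1 (Msi2), and 165 and 5 (Sox21, Gli3, Nes, Msi2 and Notch1). Library totals alone, with the block, gave 164 and 5 (the 4 of edgeR with Vim), and 309 and 9. The cause of these changes was not tested. RLE factors, library totals, the stricter filter, limma-voom and a fit of only the groups compared, all without the block, called 0 genes described here in each comparison.

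Leaving out 1 library at a time without the block gave 0 to 29 genes and 0 described here against the control, 0 to 13 and 0 to 1 (Notch3) against PA, and 0 and 0 for PA against the control. With the block, leaving out control repeat 1, control repeat 2, PA repeat 1, PA repeat 2, PA + PS2 repeat 1 and PA + PS2 repeat 2 in turn gave 137, 4, 874, 816, 942 and 15 genes against the control, of which 4, 0, 12, 11, 16 and 2 are described here. Against PA it gave 295, 250, 1008, 196, 1021 and 32 genes, of which 8, 8, 14, 6, 17 and 3 are described here. For PA against the control it gave 1, 0, 31, 35, 0 and 0 genes, with 1 described here (Notch1) without PA repeat 1 and 0 otherwise. For the repeat term it gave 225, 221, 1489, 1459, 885 and 743 genes, of which 3, 1, 11, 9, 16 and 14 are described here. The 13 fold changes of genes past the threshold with the block were below 0 under all 23 alternatives each. For each of the 13, both PA + PS2 libraries lay below both libraries of the other group, so these alternatives could hardly change the sign. Depth limits the lowest genes most: the 0.0968 CPM of Hes5 in PA repeat 1 rests on 3 counts.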
